A study of Canis lupus familiaris with 29 samples.

Results

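Glycolysis, the pentose phosphate pathway and the control of pyruvate use were followed through 36 listed genes of glucose metabolism. The genes were looked up by gene name, and 30 of the 36 were found among the 30951 genes of the count table. ALDOA, PGAM1, PKM, LDHA, PDHB and TALDO1 were not found under these names. No name is given for 12712 genes of the table, and whether any of the 6 was counted under an identifier alone was not tested. The main aldolase, phosphoglycerate mutase, pyruvate kinase and lactate dehydrogenase A steps therefore have no value here.

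Bulk tissue of 29 dogs was sequenced, and each library came from a separate dog. Normal adrenal medullas (NAMs) were taken from 10 healthy dogs that had been used in animal research. The other 19 libraries were of pheochromocytomas and 1 paraganglioma (PPGLs), tumors of chromaffin cells in pet dogs seen at several clinics, sampled during an operation or after death. The authors had left out 2 further tumors and divided the rest into PPGL group 1 (7 tumors) and PPGL group 2 (12 tumors) by a principal component analysis of the same expression data. Breed, age and treatment are not in the labels. Origin and tissue cannot be told apart between PPGLs and NAMs, and p-values between the PPGL groups describe a split that the data themselves defined.

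Cells take up glucose through SLC2A transporters, phosphorylate it with hexokinase and break it down to pyruvate, which is either reduced to lactate and exported by SLC16A transporters or passed into mitochondria through pyruvate dehydrogenase. Phosphofructokinase sets the pace of the upper part, PFKFB enzymes make or remove its strongest activator, and pyruvate dehydrogenase kinases (PDKs) switch pyruvate dehydrogenase off. Among human PPGLs, a class called pseudohypoxic is known for high expression of glycolysis genes.

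The authors deposited unnormalized counts of reads over the exons of each Ensembl gene on the genome build CanFam3.1. Totals were 19258054 to 35918182 counts in NAMs (median 25494016.5), 18493540 to 31919833 in group 1 (median 20825468) and 18208718 to 24569667 in group 2 (median 22051743). Levels are given as TMM-normalized CPM, and as FPKM, which also divides by exon length, where genes are compared with each other. A count of 3, the smallest amount taken as measurable, corresponds to 0.0835 to 0.165 CPM, which covers counting error only. Genes were tested with edgeR by its quasi-likelihood method, which gave the log2 fold change (log2 FC) and an F statistic. The standard error (SE) was derived from these, as the size of the log2 FC over the square root of F. The p-values were FDR-adjusted by Benjamini-Hochberg over all genes tested. A gene was called at an FDR-adjusted p below 0.05 against NAMs and below 0.1 between the groups. These are FDR cut-offs of the paper, which set them on p-values of the Mann-Whitney U-test, not of edgeR. Its further cut-off for the log2 FC was not applied.

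Chromaffin markers were present in all 3 groups. The summed level of the 11 found of 12 listed, with CHGB the most abundant, had a median of 32300 CPM in NAMs, 34380 CPM in group 1 and 49507 CPM in group 2, and CHGA was not found by name. By edgeR SYP and PHOX2A were higher in PPGLs and PNMT lower, and 8 of the 11 were not called. PNMT had medians of 2340 CPM in NAMs, 508 CPM in group 1 and 169 CPM in group 2. SLC18A2, called higher in group 2 against NAMs, had medians of 55.1, 1.64 and 572 CPM. The NAM libraries also carried markers of the adrenal cortex, the steroid-producing layer around the medulla. The sum of 11 cortical markers had a median of 37738 CPM in NAMs, 290 CPM in group 1 and 3716 CPM in group 2, with CYP17A1 the most abundant in NAMs, and MC2R and MRAP were at or near 0 in group 1. A cortical score, the mean log2 CPM of these markers, was 9.15 to 11.3 in NAMs, 0.22 to 3.98 in group 1 and 3.52 to 10.1 in group 2. The scores of group 1 and NAMs did not overlap, so a difference between them in any gene and the loss of cortex cannot be told apart. In bulk tissue, fewer cells of a type and less RNA per cell cannot be told apart either.

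Other cell types differed as well. The median sum of 9 leukocyte markers was 305 CPM in NAMs and 570 CPM in PPGLs, where S100A8 was the most abundant. Of the 8 that could be tested, 3 rose and 1 fell by edgeR, and CD14 was not found by name. Fibroblast markers summed to a median of 449 CPM in NAMs and 710 CPM in PPGLs, with COL3A1 the most abundant in PPGLs and COL1A2 in NAMs, and proliferation markers to 35.8 and 114 CPM, with TOP2A the most abundant in PPGLs. By edgeR 5 of 8 fibroblast markers were higher in PPGLs (median log2 FC of the 8 2.20), as were 7 of 8 proliferation markers. Endothelial markers went the other way, with 699 CPM in NAMs and 431 CPM in PPGLs. Erythroid markers were at or near 0 in NAMs (median sum 0.375 CPM) and low in PPGLs (3.46 CPM). Muscle markers (244 and 197 CPM) and liver and kidney markers (93.9 and 60.2 CPM, with 7 of 11 at or near 0 in either tissue) were low. The PPGL groups differed too, with median leukocyte sums of 347 CPM in group 1 and 714 CPM in group 2, where S100A12 was called lower in group 1, and proliferation sums of 159 and 77.4 CPM, with 6 of 8 markers higher in group 1 by edgeR. Fibroblast sums were 565 and 992 CPM, with a median log2 FC of -2.05 and 0 of 8 markers called, and of 7 muscle markers MYH7 was higher in group 1 and DES, CNN1, CKM and ACTN2 lower. The part of these cell types in the results was not tested, except where a fit with a score as covariate is given.

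A few tumors stood apart by these markers. Group 1 sample 7 had 27.1 CPM of CHGB, against 6822 CPM or more in the rest of its group, and the highest proliferation sum (1500 CPM). Group 1 samples 3 and 5 had 10.7 and 2.15 CPM of TH, the first enzyme of catecholamine synthesis, against a group median of 1379 CPM. Group 2 sample 7 was also low in TH, at 32.3 CPM, and was left out only in its turn. Group 2 sample 11 had a fibroblast sum of 25610 CPM and a leukocyte sum of 1668 CPM, both the highest of its group. Results were therefore also computed without group 1 sample 7 and group 2 sample 11, and without the 3 tumors of group 1 low in chromaffin markers (samples 3, 5 and 7).

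Of the 30 genes found, PFKFB1 was at or near 0 and did not pass the low-count filter, with at most 9 counts in any sample, and 29 were tested in each comparison. Between PPGLs and NAMs, 5 of the 29 (17.2%) rose, against 22.3% of all 14766 genes tested, and 8 (27.6%) fell, against 15.2%. SLC2A3, GPI, PFKP, TKT and FBP1 rose. HK1, PFKL, ENO1, LDHB, PFKFB2, PFKFB4, PDK1 and PDK4 fell, and 16 genes did not pass the test. The median log2 FC of the 29 was 0.13, as it was over all genes. Genes of the pathway thus went in both directions.

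Against NAMs, 6 of the 29 (20.7%) rose in group 1, where 21% of all genes did, and 5 (17.2%) fell, where 14.1% did. In group 2, 6 (20.7%) rose, where 18.4% of all genes did, and 7 (24.1%) fell, where 14.5% did. Both comparisons share the NAMs with each other and with that of all PPGLs. The median log2 FC was 0.03 in group 1 and 0.07 in group 2, where all 15201 genes tested had 0.13 and 0.09. The share that fell was above that of all genes in each of these comparisons, by most over all PPGLs and in group 2, and whether the shares differ was not tested. The account below therefore goes gene by gene. With the cortical score as covariate, calls over all genes also fell, in PPGLs from 3295 higher and 2246 lower to 1120 and 905. In group 1 they fell from 3194 and 2137 to 8 and 3, and in group 2 from 2798 and 2207 to 553 and 327. Most calls of any gene were thus lost in that fit. The sample number, the replicate block of another alternative, does not pair the dogs.

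**Figure D1:**
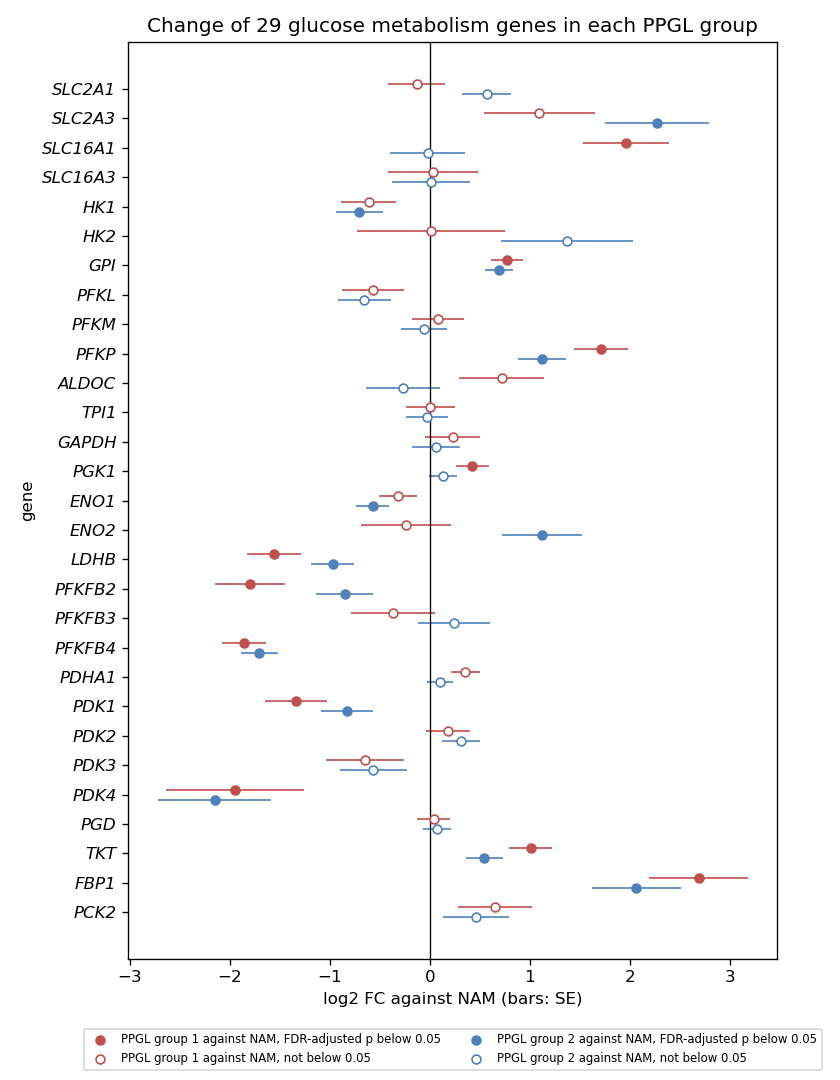
The log2 FC against NAMs (horizontal axis) of the 29 genes tested, in the order of their roles, in PPGL group 1 (red) and PPGL group 2 (blue), with bars of 1 SE and filled points for an FDR-adjusted p below 0.05. SLC2A3 and FBP1 lay to the right and PFKFB4 and PDK4 to the left in both groups. SLC2A3, SLC16A1, HK1, PGK1, ENO1 and ENO2 were filled in 1 group each.

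Of the 4 glucose and lactate transporters, 1 rose in PPGLs. SLC2A3 (ENSCAFG00000013918, chromosome 27, 37297932 to 37428410) encodes GLUT3, a high-affinity glucose transporter best known from neurons. Its level was 14.0 to 46.1 CPM in NAMs (median 24.0), 22.6 to 196 in group 1 (median 35.5) and 19.0 to 595 in group 2 (median 62.5). The groups overlapped at their lower ends, and 12 of 19 PPGLs lay above every NAM, 10 of them in group 2. Group 2 samples 11 and 4 and group 1 sample 5 were far above the other tumors. The log2 FC was 1.95 (SE 0.51, edgeR FDR-adjusted p = 0.00373) over all PPGLs and 2.27 (SE 0.52, edgeR FDR-adjusted p = 0.00143) in group 2. In group 1 it was 1.10 (SE 0.55, edgeR FDR-adjusted p = 0.123) and not called, and the groups were not shown to differ (log2 FC -1.17, SE 0.66, edgeR FDR-adjusted p = 0.344). Without group 2 sample 11 and group 1 sample 7, the log2 FC over all PPGLs was 1.57 (edgeR FDR-adjusted p = 0.0033). With a leukocyte score as covariate it was 1.02 (edgeR FDR-adjusted p = 0.0218).

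SLC2A1, which encodes the basal glucose transporter GLUT1, had medians of 53.3 CPM in NAMs, 52.9 CPM in group 1 and 72.3 CPM in group 2 and was not called in any comparison, with a log2 FC of 0.35 over all PPGLs. Without group 1 sample 2 it passed in group 2 against NAMs (0.56). SLC16A1 (ENSCAFG00000013356, chromosome 17, 62622902 to 62787481) encodes MCT1, which moves lactate and pyruvate across the cell membrane in either direction. Its level was 4.19 to 8.50 CPM in NAMs (median 5.47), 3.72 to 67.2 in group 1 (median 12.9) and 1.30 to 14.3 in group 2 (median 5.64). Group 1 spanned the range of the NAMs and went far beyond it, with 5 of 7 tumors above every NAM, while 3 tumors of group 2 lay below every NAM. Group 1 was higher than NAMs (log2 FC 1.96, SE 0.43, edgeR FDR-adjusted p = 0.000848), group 2 was not called (log2 FC -0.02, SE 0.38, edgeR FDR-adjusted p = 0.971), and over all PPGLs it missed the threshold (log2 FC 1.05, SE 0.48, edgeR FDR-adjusted p = 0.0834). The 3 highest values, 67.2, 37.9 and 24.5 CPM, were those of group 1 samples 5, 7 and 3, the tumors low in chromaffin markers. Without these 3 the log2 FC of group 1 against NAMs was 0.36 (edgeR FDR-adjusted p = 0.5), and it was 1.96 with them. The Mann-Whitney U-test did not call it either. SLC16A3, which encodes the lactate exporter MCT4, had medians of 8.09, 9.47 and 10.7 CPM in NAMs, group 1 and group 2 and was not called in any comparison.

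In upper glycolysis, from glucose phosphorylation to triose phosphates, 2 of the 8 genes tested rose in PPGLs and 2 fell. HK1, the hexokinase of most tissues, was at a median of 302 CPM in NAMs and 173 CPM in PPGLs and fell by 0.66 on the log2 scale (SE 0.21, edgeR FDR-adjusted p = 0.0128), with 12 of 19 PPGLs below every NAM. In group 1 it was not called (-0.61), but passed without sample 1 or sample 6 (-0.78 each). HK2, the inducible hexokinase, was low in most samples, with medians of 1.68 CPM in NAMs and 1.93 CPM in PPGLs, and was not called in any comparison. GPI, which converts glucose 6-phosphate to fructose 6-phosphate, ranged from 228 to 321 CPM among NAMs, whereas PPGLs spanned 299.7 to 714 CPM. All 12 tumors of group 2 and 5 of 7 in group 1 were above every NAM (log2 FC 0.73, SE 0.13, edgeR FDR-adjusted p = 7.89e-05). The rise was of like size in group 1 (0.77) and group 2 (0.70).

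The phosphofructokinase genes did not move together. PFKP (ENSCAFG00000005468, chromosome 2, 32220878 to 32260911) encodes the platelet type subunit of this rate-setting enzyme. Its level was 34.7 to 99.2 CPM in NAMs (median 54.7), 86.3 to 400 in group 1 (median 211) and 83.8 to 213 in group 2 (median 125). Of the 19 PPGLs, 15 lay above every NAM, and the rest overlapped with the 3 highest NAMs. The log2 FC was 1.38 (SE 0.25, edgeR FDR-adjusted p = 9.43e-05) over all PPGLs, 1.71 (SE 0.27, edgeR FDR-adjusted p = 2.32e-05) in group 1 and 1.12 (SE 0.24, edgeR FDR-adjusted p = 0.000901) in group 2. These calls ended with the cortical score as covariate (log2 FC 0.77, 0.80 and 0.77, edgeR FDR-adjusted p = 0.0757, 0.694 and 0.166). PFKL, the liver type, had medians of 131 CPM in NAMs and 91.4 CPM in PPGLs and fell by 0.62 on the log2 scale (SE 0.23, edgeR FDR-adjusted p = 0.0369). Its call rested on single NAMs, with log2 FCs of -0.58 without NAM 3 (p = 0.0654), -0.54 without NAM 6 (p = 0.0849) and -0.52 without NAM 8 (p = 0.0961, all FDR-adjusted in edgeR). It was also lost with the sample number as a replicate block (-0.59) and with the leukocyte score as covariate (-0.51). In group 2 it was not called (-0.66), but passed without NAM 5 (-0.72), group 1 sample 1 (-0.66), group 1 sample 7 (-0.67), group 2 sample 6 (-0.74) or group 2 sample 10 (-0.71). PFKM, the muscle type, was the most abundant of these genes in NAMs by FPKM, with a median of 87.1 against 52.6 for PFKL and 10.7 for PFKP, and was not called in any comparison.

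ALDOC, the aldolase of brain, spanned 93.1 to 249 CPM among NAMs and 26.5 to 761 CPM among PPGLs, a spread of both higher and lower tumors, and was not called. TPI1, which interconverts the triose phosphates, had the highest median FPKM in NAMs among the 30 members found (329) and medians of 535, 495 and 540 CPM in NAMs, group 1 and group 2. It was not called in any comparison.

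In lower glycolysis, from glyceraldehyde 3-phosphate to pyruvate, 1 of the 4 genes tested fell in PPGLs. GAPDH, with a median FPKM of 225 in NAMs, spanned 211 to 318 CPM among NAMs, against 63.5 to 540 CPM among PPGLs, and was not called. Several glycolysis genes, such as GAPDH, TPI1, PGK1, ENO1 and LDHB, may have processed copies in mammalian genomes, and the counting of reads that fit several places is not described, so their levels and folds are uncertain. PGK1, which makes the first ATP of the pathway, spanned 267 to 325 CPM among NAMs and 222 to 760 CPM in group 1, where it rose (log2 FC 0.43, SE 0.16, edgeR FDR-adjusted p = 0.0423). That call was lost without any 1 of NAMs 1, 2, 3, 4, 5, 6, 8 and 10 or group 1 samples 2, 4 and 6, and without sample 6, which had 760 CPM, the log2 FC was 0.19. It was also lost by the Mann-Whitney U-test, without a low-count filter (log2 FC 0.41), with the sample number as a replicate block (0.39) and with the cortical score as covariate (1.25).

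Of the enolases, 1 fell in PPGLs and the other rose in group 2. ENO1, the enolase of most tissues, had medians of 151 CPM in NAMs and 102 CPM in PPGLs and fell by 0.47 on the log2 scale (SE 0.15, edgeR FDR-adjusted p = 0.0156), with 11 of 19 PPGLs below every NAM. ENO2 (ENSCAFG00000014523, chromosome 27, 38119413 to 38129182) encodes neuron-specific enolase, a common marker of neuroendocrine cells. Its level was 130 to 323 CPM in NAMs (median 185), 11.7 to 391 in group 1 (median 226) and 148 to 910 in group 2 (median 403). In group 2, 9 of 12 tumors were above every NAM, whereas 3 tumors of group 1, samples 4, 6 and 7, were below every NAM. Group 2 was higher than NAMs (log2 FC 1.12, SE 0.40, edgeR FDR-adjusted p = 0.0304), and group 1 was not called (log2 FC -0.24, SE 0.45, edgeR FDR-adjusted p = 0.722). The call in group 2 was lost without NAM 2 (log2 FC 1.06), NAM 6 (1.09), group 2 sample 5 (0.99) or group 2 sample 8 (1.04), and with the sample number as a replicate block (1.00). With the cortical score as covariate the log2 FC itself was 0.27 (edgeR FDR-adjusted p = 0.832). ENO2 and TPI1 are neighbors on chromosome 27, from 38119413 to 38129182 and from 38154519 to 38158137, and GAPDH starts at 38468889.

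LDHB (ENSCAFG00000012195, chromosome 27, 25470665 to 25492920) encodes the lactate dehydrogenase subunit that is typical of heart and favors the oxidation of lactate. It was the only lactate dehydrogenase gene among the members found. Its level was 7.81 to 23.8 CPM in NAMs (median 16.9), 3.15 to 8.36 in group 1 (median 5.54) and 5.61 to 14.4 in group 2 (median 7.26). In PPGLs 14 of 19 were below every NAM, 6 of 7 in group 1 and 8 of 12 in group 2, and the others overlapped with the lowest NAMs. The fall was seen over all PPGLs (log2 FC -1.16, SE 0.21, edgeR FDR-adjusted p = 0.000107), in group 1 (log2 FC -1.56, SE 0.27, edgeR FDR-adjusted p = 5.55e-05) and in group 2 (log2 FC -0.97, SE 0.22, edgeR FDR-adjusted p = 0.00132). None of these calls was kept in the fit with the cortical score, where the log2 FC was -0.62 over all PPGLs (edgeR FDR-adjusted p = 0.142), -0.75 in group 1 (p = 0.688) and -0.65 in group 2 (p = 0.232).

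The PFKFB genes encode enzymes that make and break down fructose 2,6-bisphosphate, the activator of phosphofructokinase, and 2 of the 3 tested fell in PPGLs. PFKFB4 (ENSCAFG00000012493, chromosome 20, 40556790 to 40585652) separated the tissues in full. Its level was 22.99 to 55.6 CPM in NAMs (median 36.8), 6.72 to 14.6 in group 1 (median 11.3) and 7.47 to 18.9 in group 2 (median 10.9). All 19 PPGLs were below every NAM, and the PPGL groups lay on top of each other. The log2 FC was -1.75 (SE 0.16, edgeR FDR-adjusted p = 9.28e-09) over all PPGLs, -1.86 (SE 0.22, edgeR FDR-adjusted p = 8.11e-07) in group 1 and -1.70 (SE 0.18, edgeR FDR-adjusted p = 3.86e-07) in group 2. It had the lowest FDR-adjusted p among the 29 genes in each of these comparisons. Its relation to the cortical score among NAMs is given below.

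PFKFB2 (ENSCAFG00000011550, chromosome 7, 6196656 to 6218397), first described in heart, was also lower. Its level was 38.3 to 131 CPM in NAMs (median 62.3), 8.17 to 29.5 in group 1 (median 25.4) and 19.3 to 124 in group 2 (median 34.5). All 7 tumors of group 1 and 7 of 12 in group 2 were below every NAM, and group 2 sample 1, at 124 CPM, lay near the top of the NAM range. Its log2 FC was -1.13 (SE 0.28, edgeR FDR-adjusted p = 0.00257) over all PPGLs, -1.80 (SE 0.35, edgeR FDR-adjusted p = 0.000245) in group 1 and -0.85 (SE 0.29, edgeR FDR-adjusted p = 0.0228) in group 2. The call in group 2 was lost without NAM 6 (log2 FC -0.73) or NAM 8 (-0.72) and with the leukocyte score as covariate (-0.60). With the cortical score as covariate little of the fold was left, at -0.06 in group 2 (edgeR FDR-adjusted p = 0.947) and 0.35 in group 1 (p = 0.905). PFKFB3, the form that mostly makes the activator, spanned 34.8 to 99.8 CPM among NAMs, against 20.5 to 238 CPM among PPGLs, and was not called. Its 2 highest tumors were group 2 samples 11 and 1, and 9 of 19 PPGLs were below every NAM. PFKFB1, the liver form, had at most 0.138 CPM in NAMs and 0.349 CPM in PPGLs.

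The pyruvate dehydrogenase subunit measured did not pass the test over all PPGLs, while 2 of its 4 kinases fell. PDHA1, the catalytic alpha subunit, had medians of 115 CPM in NAMs and 127 CPM in PPGLs and was not called. It passed in group 1 against NAMs without group 1 sample 2 (log2 FC 0.47), group 1 sample 5 (0.39) or any 1 of group 2 samples 5, 9 and 11 (0.36). PDK4 (ENSCAFG00000002129, chromosome 14, 20827831 to 20839256) is the kinase known to respond to fasting and fat oxidation. Its level was 34.8 to 166 CPM in NAMs (median 102), 0.423 to 91.4 in group 1 (median 15.6) and 6.45 to 74.7 in group 2 (median 18.1). Of the PPGLs, 15 of 19 were below every NAM, and the others, group 1 samples 3 and 5 and group 2 samples 4 and 11, lay above NAM 4, itself far below the other NAMs. PDK4 was lower over all PPGLs (log2 FC -2.07, SE 0.49, edgeR FDR-adjusted p = 0.00144), in group 1 (log2 FC -1.95, SE 0.69, edgeR FDR-adjusted p = 0.0276) and in group 2 (log2 FC -2.15, SE 0.57, edgeR FDR-adjusted p = 0.00464). In group 1, where values spanned 0.423 to 91.4 CPM, the call was lost without sample 6 (log2 FC -1.85) or sample 7 (-1.74), and the log2 FC was -2.65 without sample 5.

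PDK1 (ENSCAFG00000013060, chromosome 36, 16918058 to 16944620), a kinase gene that the hypoxia-inducible factor is known to turn on, was lower as well. Its level was 42.7 to 118 CPM in NAMs (median 67.1), 8.83 to 56.1 in group 1 (median 25.8) and 19.2 to 74.6 in group 2 (median 35.5). In 6 of 7 tumors of group 1 and 8 of 12 of group 2 it was below every NAM, with overlap in the rest. Estimates were a log2 FC of -0.99 (SE 0.24, edgeR FDR-adjusted p = 0.00169) over all PPGLs, -1.34 (SE 0.31, edgeR FDR-adjusted p = 0.00131) in group 1 and -0.83 (SE 0.26, edgeR FDR-adjusted p = 0.0139) in group 2. The 3 calls ended in the fit with the cortical score, at log2 FCs of -0.38, -0.07 and -0.30 (edgeR FDR-adjusted p = 0.461, 0.984 and 0.669). PDK2 (medians 56.0 CPM in NAMs and 65.1 CPM in PPGLs) and PDK3 (92.9 and 53.6 CPM) were not called in these comparisons. For PDK3, 11 of 19 PPGLs were below every NAM, with a log2 FC of -0.59 (SE 0.30, edgeR FDR-adjusted p = 0.118), and in group 1 it passed without sample 1 (-1.01).

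**Figure D2:**
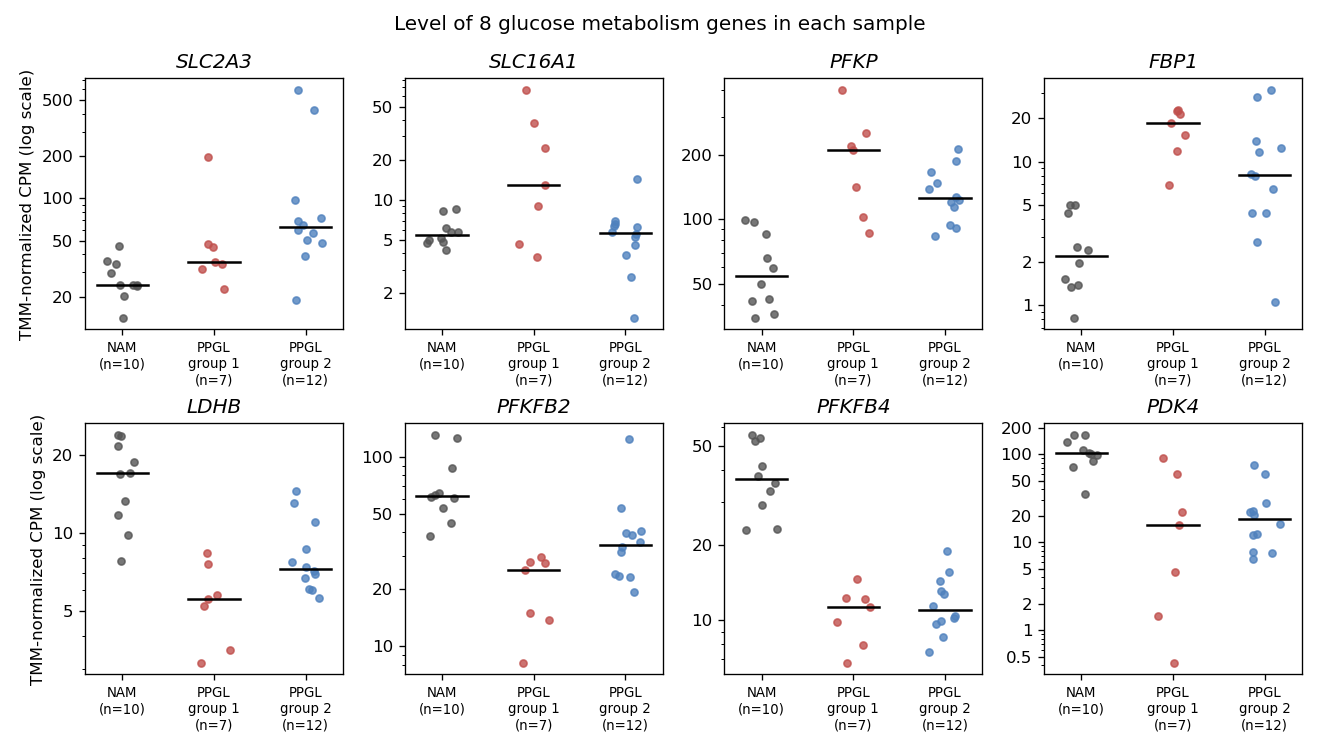
TMM-normalized CPM (vertical axis, log scale) of 8 genes in each sample (NAM, n = 10; PPGL group 1, n = 7; PPGL group 2, n = 12), with a line at the median of each group. All 19 PPGLs lay below every NAM for PFKFB4, whereas the 3 highest SLC16A1 values, 24.5 to 67.2 CPM, were in group 1.

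In the pentose phosphate pathway, which makes NADPH in its oxidative branch and ribose and sugar phosphates in its non-oxidative branch, 1 of the 2 genes tested rose. TKT (ENSCAFG00000008647, chromosome 20, 36681531 to 36742199) encodes transketolase of the non-oxidative branch. Its level was 236 to 364 CPM in NAMs (median 273), 337 to 1022 in group 1 (median 486) and 242 to 766 in group 2 (median 406). Of the PPGLs, 15 of 19 were above every NAM, and the rest lay within the NAM range. Its log2 FC was 0.74 (SE 0.19, edgeR FDR-adjusted p = 0.00274) over all PPGLs, 1.01 (SE 0.21, edgeR FDR-adjusted p = 0.000522) in group 1 and 0.54 (SE 0.19, edgeR FDR-adjusted p = 0.0258) in group 2. The call in group 2 was lost without sample 11, which had 766 CPM (log2 FC 0.44), with the sample number as a replicate block (0.43) and with the leukocyte score as covariate (0.47). Every TKT call ended with the cortical score as covariate, at a log2 FC of 0.37 over all PPGLs, 0.93 in group 1 and 0.51 in group 2. The edgeR FDR-adjusted p was 0.338, 0.519 and 0.289. In the groups the log2 FC stayed near that without the score, 1.01 and 0.54, and most genes lost their calls in this fit. PGD, a dehydrogenase of the oxidative branch, had medians of 235 CPM in NAMs and 249 CPM in PPGLs and was not called.

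FBP1 (ENSCAFG00000001305, chromosome 1, 72099881 to 72125224) encodes fructose 1,6-bisphosphatase, which reverses the phosphofructokinase step in gluconeogenesis, and had the largest log2 FC among the 29 genes in PPGLs against NAMs. Its level was 0.814 to 5.02 CPM in NAMs (median 2.19), 6.91 to 22.8 in group 1 (median 18.6) and 1.05 to 31.6 in group 2 (median 8.03). All 7 tumors of group 1 and 8 of 12 in group 2 were above every NAM, and group 2 sample 1 was among the lowest samples. The log2 FC was 2.33 (SE 0.44, edgeR FDR-adjusted p = 0.000169) over all PPGLs, 2.69 (SE 0.49, edgeR FDR-adjusted p = 0.000121) in group 1 and 2.07 (SE 0.45, edgeR FDR-adjusted p = 0.000931) in group 2. These calls ended with the cortical score as covariate (log2 FC 1.53, 1.04 and 1.40, edgeR FDR-adjusted p = 0.0563, 0.818 and 0.185). By FPKM FBP1 stayed low, with medians of 1.53 in NAMs and 8.28 in PPGLs. PCK2, the mitochondrial enzyme that makes phosphoenolpyruvate, had medians of 16.8 CPM in NAMs and 22.3 CPM in PPGLs and was not called, though it passed in group 1 without sample 4 (log2 FC 0.85).

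Together the 30 genes took 0.344 to 0.437% of all counts in NAMs (median 0.365%), 0.282 to 0.573% in group 1 (median 0.484%) and 0.360 to 0.552% in group 2 (median 0.417%). The ranges overlapped, and this share was not tested.

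Ratios of 2 isozymes within a library need no scaling between libraries, and 6 of the 8 planned pairs could be formed. LDHA/LDHB and ALDOC/ALDOA could not, since LDHA and ALDOA were not found. Each log2 ratio was compared between PPGLs and NAMs and between the groups by a two-sided permutation test, with p adjusted over the 12 tests and read at an adjusted p below 0.05 in both comparisons, also between the groups, where 0.1 was used for genes. PFKP against PFKM ranged from -2.99 to -1.84 in NAMs and from -1.75 to 1.32 in PPGLs. The tissues did not overlap, as the lowest tumor was above the highest NAM. The mean ratio was 1.47 higher in PPGLs (permutation p = 1e-05, the smallest that the resamples can give, adjusted p = 6e-05). PFKM was not called, so the ratio mostly repeats the rise of PFKP, which lost its call with the cortical score as covariate. The ratio was not tested with that score. PFKP against PFKL was 2.06 higher (permutation p = 1e-05, adjusted p = 6e-05), with 16 of 19 PPGLs above every NAM.

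The ratio of SLC2A3 to SLC2A1 ranged from -1.78 to -0.06 in NAMs and from -1.45 to 2.63 in PPGLs, which overlapped in part, with 8 of 19 PPGLs above every NAM. The mean was 1.07 higher in PPGLs (permutation p = 0.00759, adjusted p = 0.0228), while the difference of medians was 0.84 (adjusted permutation p = 0.0578). HK2/HK1 (difference 0.97), ENO2/ENO1 (0.82) and SLC16A3/SLC16A1 (-0.34) were not shown to differ between PPGLs and NAMs.

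Between the PPGL groups, 1 of the 29 genes (3.45%) was higher in group 1, where 3.97% of all 14666 genes tested were. By edgeR 0 genes were lower, where 2.95% of all genes were. At an unadjusted p below 0.05, 3 were higher and 4 lower, DESeq2 called 1 higher and 3 lower (SLC2A3, ENO2 and PFKFB2), and the Mann-Whitney U-test called 0 in either direction. Over all 14666 genes, DESeq2 called 916 higher and 877 lower and the Mann-Whitney U-test 117 and 183, against 582 and 433 by edgeR. The median log2 FC was 0.08, against 0.04 over all genes. The gene called was SLC16A1, the lactate transporter, which was higher in group 1 (log2 FC 1.98, SE 0.48, edgeR FDR-adjusted p = 0.0309). In group 1, 3 of 7 tumors lay above every tumor of group 2, and these were the 3 tumors low in chromaffin markers. Without them the log2 FC was 0.38 (edgeR FDR-adjusted p = 0.731), after adding the cortical score to the fit it was 0.07 (FDR-adjusted p = 0.994), and with the sample number as a replicate block it was 1.82 (FDR-adjusted p = 0.352). Over all genes, those higher went from 582 to 172, 11 and 10 in these 3 fits, and the sample numbers do not pair the dogs. Over the alternatives run for SLC16A1, including this edgeR fit, the FDR-adjusted p ranged from 0.00221 to 0.994.

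Other genes differed in size without passing the threshold. The ENO2 estimate was lower in group 1 (log2 FC -1.35, SE 0.53, edgeR FDR-adjusted p = 0.165), with 3 of 7 tumors below every tumor of group 2. PFKFB2 (log2 FC -0.93, SE 0.35, edgeR FDR-adjusted p = 0.141), LDHB (log2 FC -0.58, SE 0.26, edgeR FDR-adjusted p = 0.23) and SLC2A1 (log2 FC -0.70, edgeR FDR-adjusted p = 0.234) pointed the same way, and PFKP (log2 FC 0.59, SE 0.26, edgeR FDR-adjusted p = 0.209) the other way. ALDOC was at 1.00 (SE 0.47, edgeR FDR-adjusted p = 0.243) and HK2, with 0 counts in group 1 sample 2, at -1.38 (SE 0.85, edgeR FDR-adjusted p = 0.389). As a ratio within each library, ENO2 against ENO1 averaged -0.10 in group 1 and 2.12 in group 2, a difference of -2.22 (exact permutation test, p = 0.00441, adjusted p = 0.0176). In 3 of 7 tumors of group 1 the ratio was below every tumor of group 2, and the rest overlapped. With medians in place of means, the difference was -1.36 (adjusted permutation p = 0.184).

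SLC16A3 against SLC16A1, the exporter against the two-way carrier, averaged -0.72 in group 1 and 0.94 in group 2, with overlapping ranges. The difference was -1.66 (exact permutation test, p = 0.0127, adjusted p = 0.0304). It missed 0.05, though not 0.1, without group 1 sample 2 (-1.55), sample 5 (-1.31) or sample 7 (-1.64), and was -1.02 without samples 3, 5 and 7, which missed both. HK2 against HK1 was 1.89 lower on average, at a difference of -1.89 (exact permutation test, p = 0.0591, adjusted p = 0.118). Group 1 sample 2 had 0 counts of HK2, so its ratio is set by the 0.5 added to each count. Without this sample the difference was -1.28, and with 5 added in place of 0.5 it was -1.34 (adjusted permutation p = 0.158). Larger differences without group 1 sample 3 (-2.50) or without the 3 tumors low in chromaffin markers (-3.54) include that sample and are not read as results. The ratios PFKP/PFKM (0.50), PFKP/PFKL (0.66) and SLC2A3/SLC2A1 (-0.03) were not shown to differ between the groups.

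With the cortical score as a covariate, fewer genes were called. Between PPGLs and NAMs, 2 of the 29 rose and 2 fell, where over all genes 1120 rose and 905 fell, against 3295 and 2246 without the covariate. SLC2A3 (log2 FC 2.17, FDR-adjusted p = 0.0427) and GPI (0.65, p = 0.0149) were still higher in edgeR, and PFKFB4 (-1.41, p = 0.000288) and PDK4 (-2.59, p = 0.0213) still lower. The calls of PFKP (0.77, p = 0.0757), FBP1 (1.53, p = 0.0563), TKT (0.37), HK1 (-0.57), PFKL (-0.42), ENO1 (-0.60), LDHB (-0.62), PFKFB2 (-0.19) and PDK1 (-0.38) were lost in that edgeR fit. Comparing group 1 with NAMs, 0 genes were called in either direction by this fit, where all genes gave 8 and 3, and in group 2 against NAMs 0 rose and 2 fell, where all genes gave 553 and 327. The 4 genes called over all PPGLs were thus not all called by group. SLC2A3 was at a log2 FC of 0.85 in group 2 (FDR-adjusted p = 0.49 in edgeR) and -2.26 in group 1 (p = 0.566), and GPI at 0.65 (p = 0.0521) and 0.67 (p = 0.545). PFKFB4 was at -1.24 in group 2 (edgeR FDR-adjusted p = 0.00462) and -0.68 in group 1 (p = 0.605), and PDK4 at -3.05 (p = 0.0379) and -4.37 (p = 0.342). The score itself separates the groups, so this fit also removes differences that run along with it. Over the alternatives run, the FDR-adjusted p ranged from 0.000124 to 0.0427 for SLC2A3, from 2e-07 to 0.0757 for PFKP, from 5.75e-08 to 0.0563 for FBP1 and from 0.000108 to 0.0213 for PDK4, the edgeR fits among them.

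The genes called were also set beside the cortical score within the 10 NAMs and within group 2, in a comparison chosen after the data were seen. In NAMs, Pearson r was largest in size at 0.827 for PFKFB4 (permutation p = 0.00399), 0.768 for LDHB (p = 0.00982), 0.704 for PFKFB2 (p = 0.0221) and 0.687 for PDK1 (p = 0.0321), and -0.771 for PFKP (p = 0.0102) and -0.684 for GPI (p = 0.0312), while HK1 (0.0339), SLC2A3 (-0.0100) and PDK4 (0.247) were nearer 0. In group 2 the same 6 genes had r of 0.492 for PFKFB4, 0.309 for LDHB, 0.566 for PFKFB2, 0.350 for PDK1, -0.316 for PFKP and -0.265 for GPI. With 2 samples left out, r in group 2 changed sign for PDK1 (-0.487) and LDHB (-0.0848) and was -0.0689 for PFKP. It was 0.515 for PFKFB4, 0.4999 for PFKFB2 and -0.185 for GPI. In NAMs the same 6 genes kept their signs with 2 samples left out. After adjustment over 26 tests, 13 genes in NAMs and in group 2, 0 passed 0.05, with a lowest adjusted permutation p of 0.0884. The share of cortex in the folds of these genes was not tested.

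Lists of related genes outside the 36 were counted the same way in PPGLs against NAMs, to be read beside the 22.3% higher and 15.2% lower of all genes. Of 9 other glycolytic isozymes tested, 2 rose and 3 fell. PGAM2, the muscle phosphoglycerate mutase, was at or under 3 counts in 7 of 10 NAMs, while PPGLs spanned 0.0470 to 12.2 CPM (log2 FC 3.77, edgeR FDR-adjusted p = 0.000632), a fold that rests on near-empty NAMs. HK3, a hexokinase of white blood cells, had medians of 1.07 CPM in NAMs and 1.95 CPM in PPGLs (log2 FC 1.51, edgeR FDR-adjusted p = 0.0102). With the leukocyte score as covariate its log2 FC was 0.78 (edgeR FDR-adjusted p = 0.0485). By group against NAMs, HK3 was called in group 2 but not in group 1. LDHD, a mitochondrial D-lactate dehydrogenase, fell from a median of 87.1 CPM to 11.6 CPM, with 18 of 19 PPGLs below every NAM (log2 FC -2.56, edgeR FDR-adjusted p = 0.000121). Of 11 other hexose and monocarboxylate transporters, 3 rose by edgeR, 4 by DESeq2, 2 by the Mann-Whitney U-test and 4 at an unadjusted p below 0.05, and 0 fell by any of these. The 3 of edgeR were SLC2A6 (log2 FC 1.95), EMB (1.55), a chaperone of SLC16A transporters, and SLC2A8 (0.81). By group against NAMs, SLC2A8 was called in group 1 but not in group 2. EMB was not called by the Mann-Whitney U-test, nor with the leukocyte score as covariate (0.81) or the sample number as a replicate block.

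Of 7 other pentose phosphate genes, 2 fell and 0 rose by edgeR, DESeq2, the Mann-Whitney U-test or at an unadjusted p below 0.05. H6PD, which opens an oxidative branch in the endoplasmic reticulum, was lower (log2 FC -1.56, SE 0.24, edgeR FDR-adjusted p = 1.33e-05), with 15 of 19 PPGLs below every NAM. It was still called with the cortical score as covariate, at a log2 FC of -1.60.

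Of 11 genes of mitochondrial pyruvate handling, 5 fell and 0 rose by the same tools. PDPR (log2 FC -1.48) and PDP2 (-0.92) encode subunits of the phosphatase that switches pyruvate dehydrogenase back on. DLAT (-0.54) and DLD (-0.60), subunits of the dehydrogenase complex itself, also fell and are named after their values were seen. ME2, a mitochondrial malic enzyme, had a log2 FC of -0.65, and MPC2, a subunit of the mitochondrial pyruvate carrier, was not called (-0.09). MPC1, its partner, was not found by name. By group against NAMs, DLD and ME2 were called in group 2 but not in group 1. Of 5 other gluconeogenesis genes, PC, the pyruvate carboxylase (log2 FC -1.91), and SLC37A4, the glucose 6-phosphate transporter (-0.98), fell. FBP2, the muscle form of the bisphosphatase, was called higher (2.96, edgeR FDR-adjusted p = 0.0404), but by neither DESeq2 nor the Mann-Whitney U-test. Its log2 FC was 1.11 without group 1 sample 3, and the call was also lost without any 1 of NAMs 2, 3, 4, 5, 6, 7 and 10. Against NAMs, SLC37A4 was called in group 2 alone and FBP2 in group 1 alone.

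Of 15 glycogen genes, 2 were higher, 2 lower and 11 not called. PPP1R3B (log2 FC 2.44) and PPP1R3C (1.76), which bring a phosphatase to glycogen and favor its synthesis, rose, and the branching enzyme GBE1 fell (-0.86). By group against NAMs, PPP1R3C and GBE1 were called in group 2 but not in group 1. Of 9 genes of the NADH shuttles, 2 rose and 4 fell. GPD1 rose (log2 FC 1.52), while GPD1L (-0.89) and GOT2 (-0.77) fell. Against NAMs, GPD1 was called in group 2 alone and GPD1L in group 1 alone.

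Of 12 genes of the hypoxia-inducible factor (HIF) pathway, 4 rose and 1 fell. EPAS1, which encodes HIF-2 alpha, had medians of 328 CPM in NAMs and 736 CPM in PPGLs (log2 FC 1.14, SE 0.28, edgeR FDR-adjusted p = 0.0018), with 13 of 19 PPGLs above every NAM. The HIF targets CA9 (log2 FC 1.36) and ANKRD37 (1.64) rose, and EGLN3, another target, was not called (-0.27). ADM was called (1.20, edgeR FDR-adjusted p = 0.0416), but not without any 1 of NAMs 1, 2, 3, 6, 7, 8 and 9, group 1 sample 5 or group 2 samples 2, 4, 5, 7 and 12, at log2 FCs down to 1.09. Its call was also lost without a low-count filter, with the leukocyte score as covariate and with the sample number as a replicate block. ADM was called in neither group against NAMs by edgeR. HIF1A was below every NAM in 16 of 19 PPGLs but not called (-0.43, edgeR FDR-adjusted p = 0.124), and without group 2 sample 11, which had 705 CPM, it was lower (-0.66, FDR-adjusted p = 0.000134). It was also called lower by the Mann-Whitney U-test, with the leukocyte score (-0.71), with the replicate block (-0.65) and in group 1 against NAMs (-0.84), whereas the cortical score left -0.15 (edgeR FDR-adjusted p = 0.79).

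Between the PPGL groups, 4 genes of these lists were called by edgeR, and they are named here after their values were seen. Of the 79 tested, 1 (1.27%) was higher in group 1 and 3 (3.80%) lower, beside 3.97% and 2.95% of all genes, while DESeq2 called 1 higher and 6 lower and the Mann-Whitney U-test called 0. PGM1, which links glycogen to glycolysis, was higher in group 1 (log2 FC 0.55, FDR-adjusted p = 0.0968 in edgeR). HK3 (-1.61, FDR-adjusted p = 0.0968), the transketolase-like TKTL1 (-3.29, FDR-adjusted p = 0.064) and RBKS, the ribokinase (-1.17, FDR-adjusted p = 0.0657), were lower in edgeR. All 4 calls were lost with the cortical score as covariate, with the sample number as a replicate block and without the 3 tumors low in chromaffin markers, though most log2 FCs stayed as large. In these 3 fits they were 0.67, 0.58 and 0.64 for PGM1, -2.65, -1.05 and -1.66 for HK3, -5.54, -2.33 and -3.63 for TKTL1 and -1.32, -1.16 and -0.97 for RBKS. Over all genes, those higher went from 582 to 11, 10 and 172 in the same fits, and those lower from 433 to 88, 37 and 156. The loss of calls is thus not particular to these 4 genes. HK3, found in white blood cells, was at -0.90 (edgeR FDR-adjusted p = 0.184) with the leukocyte score as covariate.

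With the cortical score as covariate, 11 of the genes named from these lists were no longer called in PPGLs against NAMs by edgeR. They were LDHD (log2 FC -1.11), SLC2A6 (1.27), EMB (0.71), SLC2A8 (0.30), FBP2 (0.69), ME2 (-0.67), GPD1L (-0.54), GOT2 (-0.46), ANKRD37 (0.84), ADM (1.11) and DLD (-0.74). EPAS1 (1.16), CA9 (1.02), DLAT (-0.71) and H6PD were among those that kept their calls.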

How the data were processed

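RNA of 10 normal adrenal medullas (NAMs) and 19 canine pheochromocytomas and paragangliomas (PPGLs), 7 in group 1 and 12 in group 2, was sequenced by the authors as stranded mRNA libraries. The authors deposited raw counts, the number of reads over the exons of each Ensembl gene, after alignment to CanFam3.1 with STAR. The labels name both HTSeq and featureCounts for the counting, and strand setting and multi-mapping reads are not described. The authors left out 2 outlier tumors and samples of low RNA integrity.

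The 36 listed genes were matched by gene name. The members and the lists of related genes were chosen with earlier results of these data known. Counts were normalized by TMM and tested with the quasi-likelihood F test of edgeR 4.0.16 in R 4.3.3, after filterByExpr (minimum count 10, minimum total 15), with PPGLs against NAMs and the groups against each other, and each group against NAMs. FDR-adjusted p (Benjamini-Hochberg over all genes tested) below 0.05 was a call against NAMs and below 0.1 between groups. Totals were 18208718 to 35918182 counts per sample, and a floor of 3 counts was 0.0835 to 0.165 CPM. Log2 ratios of isozymes (pseudocount 0.5) were compared by permutation, 100000 resamples for PPGLs against NAMs and all splits between the groups, and read at an adjusted p below 0.05 in both, in Python 3.11.15 with numpy 2.4.6 and scipy 1.17.1. No 2 libraries were duplicates (highest Spearman correlation 0.986).

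A member was described in full when called against NAMs with a log2 FC of at least 1 in size, or called between the groups, and the others were described by range and call. From each list of related genes up to 3 called genes with the largest log2 FC in size were named, and MPC1, MPC2, HIF1A, EPAS1 and EGLN3 always. Some items that these rules would name are not reported here. From marker lists, the most abundant gene and markers at or near 0 were named. These rules and the alternatives were written before the data were examined here.

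Alternatives were DESeq2 size factors, the DESeq2 1.42.0 Wald test with its own size factors, the Mann-Whitney U-test, a filter of 1 CPM, no filter, the cortical score as covariate, the sample number as a replicate block, all 3 groups in the fit, each sample left out, and for the ratios a pseudocount of 5 and the difference of medians. A leukocyte score as covariate, and fits without 2 or 3 tumors that stood apart by markers, were chosen after seeing the data, as was the correlation of 13 genes with the cortical score within NAMs and within group 2 (Pearson r, permutation p). Figures were drawn with matplotlib 3.10.9.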

Additional observations from a re-analysis of the deposited data

Results flagged for a closer look

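In groups of 7 or 10 samples, the highest or lowest sample was marked when its distance to the next was large against the range of the group. Of 59 groups tested, 7 had such a sample, where chance gives about 1 in 20, or 2.95.

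In PPGL group 1, SLC2A1 was lowest in sample 2 (11.3 CPM) and SLC2A3 highest in sample 5 (196 CPM), each far from the other tumors of the group. Group 1 sample 7, the tumor with little CHGB, was far below the others for PFKL (13.6 CPM), PFKM (56.5 CPM) and PGD (91.9 CPM). Among NAMs, sample 4 was far below the others for ENO1 (114 CPM) and PDK4 (34.8 CPM). The cause was not tested in any of these cases.

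The log2 FC of SLC16A1 against NAMs was larger in group 1 than in group 2 by 1.98, which is the difference that edgeR tested between the groups (FDR-adjusted p = 0.0309). It was 0.38 (edgeR FDR-adjusted p = 0.731) without the 3 tumors low in chromaffin markers.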

How the results depend on the processing

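Each result was recomputed with 1 choice changed at a time, except that the DESeq2 Wald test also used its own size factors. Signs that changed below belong to log2 FCs that did not pass the test, except where a call is named, and for changed results the cause was not tested.

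In PPGLs against NAMs, SLC2A3 (log2 FC 1.02 to 2.17, edgeR 1.95), GPI (0.65 to 0.77), PFKFB4 (-1.78 to -1.41) and PDK4 (-2.69 to -2.06) kept direction and call under every alternative run and with each sample left out. The same held for PFKFB4 (-1.72 to -1.24) and PDK4 (-3.05 to -2.14) in group 2 against NAMs. HK1, PFKP, ENO1, LDHB, PFKFB2, PDK1, TKT and FBP1 in PPGLs against NAMs lost the call under the cortical score alone. PFKL lost it also with the replicate block, with the leukocyte score and without single NAMs. SLC16A1 passed in PPGLs against NAMs with the DESeq2 Wald test. In group 2 against NAMs, PFKL passed by the Mann-Whitney U-test, by the DESeq2 Wald test and in fits leaving out the 2 or the 3 tumors set apart by markers, and PDHA1 passed in group 1 against NAMs with a filter of at least 1 CPM and with the leukocyte score.

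Against NAMs, the number of the 29 genes called moved most with the cortical score as covariate. In PPGLs against NAMs it was 2 higher and 2 lower by edgeR, from 5 and 8. For group 1 against NAMs 0 were higher and 0 lower, from 6 and 5, and in group 2 against NAMs 0 were higher and 2 lower, from 6 and 7. Values that changed sign were in PPGLs against NAMs SLC16A1 (-1.16), SLC16A3 (-0.032), ALDOC (-0.33), TPI1 (0.016), GAPDH (-0.072), and in group 1 against group 2 SLC16A3 (-0.21), PFKM (-0.11), GAPDH (-0.092), PFKFB2 (0.20), PFKFB4 (0.38), PDK1 (0.071), PDK2 (0.068), PDK4 (-1.54), FBP1 (-0.23), PCK2 (-1.21), and in group 1 against NAMs SLC2A3 (-2.26), SLC16A1 (-0.91), SLC16A3 (-0.18), HK1 (0.20), HK2 (-2.07), PFKL (0.81), PFKM (-0.48), GAPDH (-0.21), PFKFB2 (0.35), PCK2 (-1.64), and in group 2 against NAMs SLC16A3 (-0.074), ALDOC (0.22), TPI1 (0.077), GAPDH (-0.11), PFKFB3 (-0.090), PCK2 (-0.41). SLC16A1 in group 1 against NAMs and PFKFB2 in group 1 against NAMs had been called, and lost the call together with the sign.

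Between the groups, the count of 1 gene higher (SLC16A1) became 0 with the Mann-Whitney U-test, with the cortical score as covariate, with the sample number as a replicate block and without the 3 tumors low in chromaffin markers. In the same fits the number of all genes higher went from 582 to 117, 11, 10 and 172. The count of 0 lower became 3 with the DESeq2 Wald test and 2 with all 3 groups in the fit, where all genes lower went from 433 to 877 and 1162.

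The sample numbers were used as a replicate block although they do not pair the dogs, as the median correlation of paired samples was 0.0075 for NAMs with group 1, 0.0099 for NAMs with group 2 and -0.040 for group 1 with group 2. With this block, in PPGLs against NAMs ALDOC (-0.098), GAPDH (-0.032), PFKFB3 (-0.33) changed sign. The same was seen in group 1 against group 2 SLC16A3 (-0.33), PFKL (-0.21), TPI1 (-0.14), GAPDH (-0.021), PDK4 (-0.072), PCK2 (-0.18), and in group 1 against NAMs SLC16A3 (-0.11), HK2 (-0.39), PFKM (-0.053), TPI1 (-0.19), GAPDH (-0.0070), PGD (-0.027), and in group 2 against NAMs GAPDH (-0.053), PFKFB3 (-0.28). In the block fit of PPGLs against NAMs, 5 genes were higher and 7 lower.

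Other settings changed small values. With a filter of at least 1 CPM, in PPGLs against NAMs PFKM (0.0022) changed sign. Without a low-count filter, in group 1 against group 2 SLC16A3 (-0.0090), in group 1 against NAMs HK2 (-0.010), TPI1 (-0.0095), in group 2 against NAMs SLC16A3 (-0.00070) changed sign. With DESeq2 size factors, in group 1 against NAMs TPI1 (-0.012), in group 2 against NAMs SLC16A3 (-0.00054) changed sign, and with the DESeq2 Wald test in group 1 against NAMs TPI1 (-0.012), in group 2 against NAMs SLC16A3 (-0.00051) did.

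3 alternatives were added after the data were seen. With the leukocyte score as covariate, in PPGLs against NAMs PFKM (0.020), PFKFB3 (-0.48), in group 1 against group 2 PFKFB3 (0.14), PGD (0.0032), in group 1 against NAMs HK2 (-0.23), in group 2 against NAMs GAPDH (-0.027), PFKFB3 (-0.51) changed sign. Without the 2 tumors that stand apart by markers, in PPGLs against NAMs SLC16A3 (-0.098), PFKM (0.098), TPI1 (0.055), PFKFB3 (-0.27), in group 1 against group 2 SLC16A3 (-0.13), PDK3 (0.19), PGD (0.14), in group 1 against NAMs SLC16A3 (-0.19), in group 2 against NAMs SLC16A3 (-0.063), PFKFB3 (-0.19) changed sign. Without the 3 tumors low in chromaffin markers, in PPGLs against NAMs SLC16A3 (-0.047), in group 1 against group 2 SLC16A3 (-0.29), TPI1 (-0.035), GAPDH (-0.044), PDK2 (0.24), PDK3 (0.43), PDK4 (-1.29), PGD (0.15), PCK2 (-0.47), in group 1 against NAMs SLC16A3 (-0.27), HK2 (-1.13), TPI1 (-0.050), PCK2 (-0.025) changed sign.

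For the isozyme ratios, a pseudocount of 5 in place of 0.5 turned no sign and ended no call. The threshold for ratios was an adjusted p of 0.05 in both comparisons. With the difference of medians, ENO2/ENO1 between the groups was -1.36 (adjusted permutation p = 0.184), SLC16A3/SLC16A1 between the groups -1.60 (p = 0.0578) and SLC2A3/SLC2A1 between PPGLs and NAMs 0.84 (p = 0.0578), all past the threshold as means, and SLC16A3/SLC16A1 between PPGLs and NAMs was 0.17. Without the 2 tumors that stand apart, SLC16A3/SLC16A1 between the groups was -1.70 (adjusted permutation p = 0.0576) and SLC2A3/SLC2A1 0.19. Without the 3 tumors low in chromaffin markers, HK2/HK1 between the groups was -3.54 (adjusted permutation p = 0.011, not read as a result since group 1 sample 2 had 0 counts of HK2), SLC16A3/SLC16A1 -1.02 (p = 0.282), PFKP/PFKM -0.016 and PFKP/PFKL -0.21, and SLC16A3/SLC16A1 between PPGLs and NAMs was 0.020.

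Each sample was also left out in turn. For PPGLs against NAMs, values that crossed 0 ranged as follows: ALDOC -0.13 to 0.29, PFKFB3 -0.24 to 0.19, PFKM -0.046 to 0.063, SLC16A3 -0.072 to 0.28, TPI1 -0.075 to 0.043. For group 1 against group 2, values that crossed 0 ranged as follows: GAPDH -0.069 to 0.34, GPI -0.057 to 0.17, HK1 -0.070 to 0.26, PCK2 -0.022 to 0.39, PDK2 -0.27 to 0.011, PDK3 -0.44 to 0.11, PDK4 -0.47 to 0.52, PFKL -0.12 to 0.30, PGD -0.14 to 0.13, SLC16A3 -0.30 to 0.17, TPI1 -0.16 to 0.20. For group 1 against NAMs, values that crossed 0 ranged as follows: GAPDH -0.014 to 0.41, HK2 -0.80 to 0.28, PFKM -0.036 to 0.28, PGD -0.089 to 0.19, SLC16A3 -0.28 to 0.29, SLC2A1 -0.28 to 0.052, TPI1 -0.19 to 0.17. For group 2 against NAMs, values that crossed 0 ranged as follows: PFKFB3 -0.17 to 0.39, SLC16A1 -0.23 to 0.075, SLC16A3 -0.082 to 0.27, TPI1 -0.077 to 0.037. Between the groups the ratio HK2/HK1 ranged from -2.50 to -1.28 (the last without group 1 sample 2, whose ratio is set by the count added), SLC16A3/SLC16A1 from -1.93 to -1.31 and SLC2A3/SLC2A1 from -0.30 to 0.20.

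Depth sets a floor of 3 counts, 0.0835 to 0.165 CPM by library, below which a gene was taken as at or near 0. PFKFB1 lay there in 9 of 10 NAMs and 18 of 19 PPGLs. Limits of the data are the small groups (7 and 12 tumors), groups drawn from the same expression data, tissue of mixed cell types and origins that differ between PPGLs and NAMs. Protein, enzyme activity and metabolites were not measured.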
